A study of Homo sapiens with 60 samples.

Results

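The genes described here are 31 genes of cholesterol synthesis, cholesterol transport and their control by the sterol regulatory element-binding proteins (SREBPs), taken by gene symbol from a table of 60675 genes (positions below are those of GENCODE 29 on GRCh38). Each symbol matched 1 row, and all 31 genes passed the filter on low counts, which left 16356 genes for testing. By role they were 8 enzymes of the mevalonate pathway (ACAT2, HMGCS1, MVK, PMVK, MVD, IDI1, FDPS, GGPS1), 12 enzymes from squalene to cholesterol (FDFT1, SQLE, LSS, CYP51A1, TM7SF2, LBR, MSMO1, NSDHL, HSD17B7, EBP, SC5D, DHCR7), 5 genes of SREBP control (SREBF1, SREBF2, SCAP, INSIG1, INSIG2) and 6 genes of transport, efflux and storage (STARD4, NPC1, MYLIP, ABCA1, ABCG1, SOAT1).

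HT29 is an established line from a human colorectal adenocarcinoma, grown in DMEM with fetal bovine serum. Its cells were given for 24 h either the vehicle dimethyl sulfoxide (0.1% in the sample labels, 2% in the series' design text, a difference not settled here) or a water extract at a nominal 500, 100 or 20 µg/mL. The extracts were 4 single plant drugs (Cinnamomi Cortex, Astragali Radix, Cnidii Rhizoma and Rehmanniae Radix Preparata) and 2 formulae (Sagunja-tang and Samul-tang), with 3 libraries for the vehicle and for each extract and dose, so that 57 libraries entered the tests. For Paeoniae Radix each dose was a single library, which no test used. The design text adds that extracts which inhibited the cells below the top dose were used at lower concentrations, and the labels do not say for which extracts this held.

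Libraries held 20459346 to 36253747 counts. All sample titles carry the label BatchB. In the column codes the vehicle has a prefix of its own, so each comparison with the vehicle is also one between prefixes. Sample codes divide the 57 libraries into 2 sets. The first set holds 27 libraries: those of the vehicle, all of Rehmanniae Radix Preparata and Cnidii Rhizoma, and, for Astragali Radix and Cinnamomi Cortex, only replicate 1. The second set holds the other 30, from both formulae and from replicates 2 and 3 of the last-named plants. On the first principal component of the 2000 most variable genes (32.8% of their variance) the first set lay between -14.05 and -2.68 and the second between 1.37 and 12.97, except that replicate 2 of Cinnamomi Cortex at 500 µg/mL lay at -8.14. What the codes stand for is not given in the sources used here, so the sets are called library sets, and results that rest on them are given within a set or with the set as a term. The 7 colon epithelium markers summed to 10350 to 13080 CPM (counts scaled to library size), and 4 of 6 fibroblast, 4 of 6 leukocyte and 5 of 6 hepatocyte markers stayed below 1 CPM in every library. The remaining markers brought the sums to 1.47 to 2.78 CPM for fibroblasts, 16.4 to 26.7 CPM for hepatocytes (mostly APOH) and 1249 to 1726 CPM for leukocytes, nearly all of it LYZ, the lysozyme gene (1470 ± 20.1 CPM in the vehicle, SD, n = 3).

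Cholesterol is built from acetyl-CoA through mevalonate, farnesyl diphosphate and squalene, and squalene is closed to lanosterol and then trimmed to cholesterol. When the endoplasmic reticulum is short of sterol, SCAP carries SREBP to the Golgi, where it is cut and released to switch on these enzymes, and the INSIG proteins hold SCAP back when sterol is plentiful. When sterols build up, oxysterols activate the liver X receptors (LXRs), which raise the efflux pumps ABCA1 and ABCG1 and the ligase MYLIP. The intestinal epithelium both makes cholesterol and, in the small intestine, absorbs it.

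In the vehicle the 31 genes ranged from abundant synthesis enzymes to scarce efflux genes. Per kilobase of exon, SQLE, the squalene epoxidase that performs the first oxygenation step, stood highest at 207 ± 10.1 RPKM (SD, n = 3). It was followed by DHCR7, which carries out a final reduction, at 97.1 ± 4.38 RPKM. HMGCS1 (58.4 ± 7.47), CYP51A1 (56.4 ± 5.96) and INSIG1 (53.8 ± 3.10) came next on the same scale, and these neighbours lay within their spread. SREBF2, which encodes the SREBP that mainly serves cholesterol synthesis, stood at 36.7 ± 0.50 RPKM against 16.6 ± 0.55 for SREBF1, which mainly serves fatty acid synthesis. The genes of efflux and esterification were the lowest of the 31, with ABCG1 at 0.58 ± 0.07, SOAT1 at 0.49 ± 0.03 and ABCA1 at 0.45 ± 0.02 RPKM.

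The 250 bases before the start site were read from the RefSeq promoter table (GRCh38.p14) for 27 of the 31 genes. They are shown for MVD and LSS, the mevalonate and sterol enzymes with the largest differences below, for INSIG1 and SREBF2, parts of the sterol control itself, and for INSIG2, the paralog of INSIG1 that was not called. Each is shown only up to the outermost start of the gene in GENCODE 29. Capitals mark CCAAT boxes (CCAAT, or ATTGG on the other strand) and the core CACNCCAC of the sterol regulatory element (or its reverse complement), and all are written 5′ to 3′ on the gene's strand. The stretch of MVD lies at chr16:88663162-88663341 (minus strand), of LSS at chr21:46228825-46229024 (minus), of INSIG1 at chr7:155297628-155297775 (plus), of SREBF2 at chr22:41832855-41833078 (plus) and of INSIG2 at chr2:118088221-118088451 (plus). By GENCODE 29 they are upstream of these genes, with exons of the antisense RNAs SNAI3-AS1 and SREBF2-AS1 overlapping those of MVD and SREBF2.
MVD: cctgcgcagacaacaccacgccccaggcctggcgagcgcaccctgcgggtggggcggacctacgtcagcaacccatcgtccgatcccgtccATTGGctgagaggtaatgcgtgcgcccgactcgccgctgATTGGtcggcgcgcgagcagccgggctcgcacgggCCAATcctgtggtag
LSS: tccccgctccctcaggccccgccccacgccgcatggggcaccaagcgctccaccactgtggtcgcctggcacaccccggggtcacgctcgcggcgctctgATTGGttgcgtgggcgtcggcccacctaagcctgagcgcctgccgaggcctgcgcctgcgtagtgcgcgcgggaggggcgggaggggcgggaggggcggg
INSIG1: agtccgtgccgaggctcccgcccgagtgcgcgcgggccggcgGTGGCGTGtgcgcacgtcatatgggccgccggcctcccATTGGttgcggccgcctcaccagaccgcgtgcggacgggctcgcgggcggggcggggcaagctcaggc
SREBF2: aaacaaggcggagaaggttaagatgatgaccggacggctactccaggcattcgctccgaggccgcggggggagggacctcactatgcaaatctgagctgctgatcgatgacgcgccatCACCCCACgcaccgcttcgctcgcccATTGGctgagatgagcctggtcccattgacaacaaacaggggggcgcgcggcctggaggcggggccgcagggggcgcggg
INSIG2: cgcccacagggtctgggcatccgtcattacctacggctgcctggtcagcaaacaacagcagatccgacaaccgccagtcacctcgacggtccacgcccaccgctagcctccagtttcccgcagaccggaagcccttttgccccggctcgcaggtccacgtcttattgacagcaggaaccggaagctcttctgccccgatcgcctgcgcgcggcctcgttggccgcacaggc
The MVD stretch held 3 CCAAT boxes and no sterol core. LSS held 1 CCAAT box, INSIG1 and SREBF2 each held 1 CCAAT box and 1 core, and INSIG2 held neither. Over the 27 windows of 250 bases, CCAAT on either strand occurred in 17 (63.0%), against 33.0% of all 27305 promoters of the same length in the table. CACNCCAC occurred in 3 (11.1%, against 4.7%), those of SREBF2, INSIG1 and ABCA1, and the longer TCACNCCAC, which contains that core, in SREBF2 alone (3.7%, against 0.9%). CACGTG occurred in 4 (14.8%, against 6.5%) and GGGCGG in 24 (88.9%, against 42.3%). These are letter matches in a short window, without a test.

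At 500 µg/mL of Cinnamomi Cortex, the bark of a cinnamon tree, nearly the whole synthesis route was higher than in the vehicle. Of the 31 genes, 21 were called higher and 1 lower at an adjusted p under 0.05 (edgeR quasi-likelihood test, Benjamini-Hochberg), where over all genes tested 6.09% were called higher and 6.62% lower. The genes called higher were 6 of the 8 mevalonate enzymes, 11 of the 12 squalene and sterol enzymes, 3 of the 5 control genes and NPC1, and the gene called lower was the efflux pump ABCA1. Their rises ran from 1.15-fold (SCAP) to 1.75-fold (LSS), and the median log2 fold change of the 31 genes was 0.47 against 0.003 over all genes tested. All 3 treated libraries lay above all 3 vehicle libraries for 22 of the 31 genes and below them for 1, against 12.8% and 13.5% of all genes. The libraries are bulk RNA, so a larger share of cells with a transcript and more of it in each cell cannot be told apart, and as the labels do not say that replicates were separate cultures, p-values measure the spread between libraries, which may be technical.

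**Figure D1:**
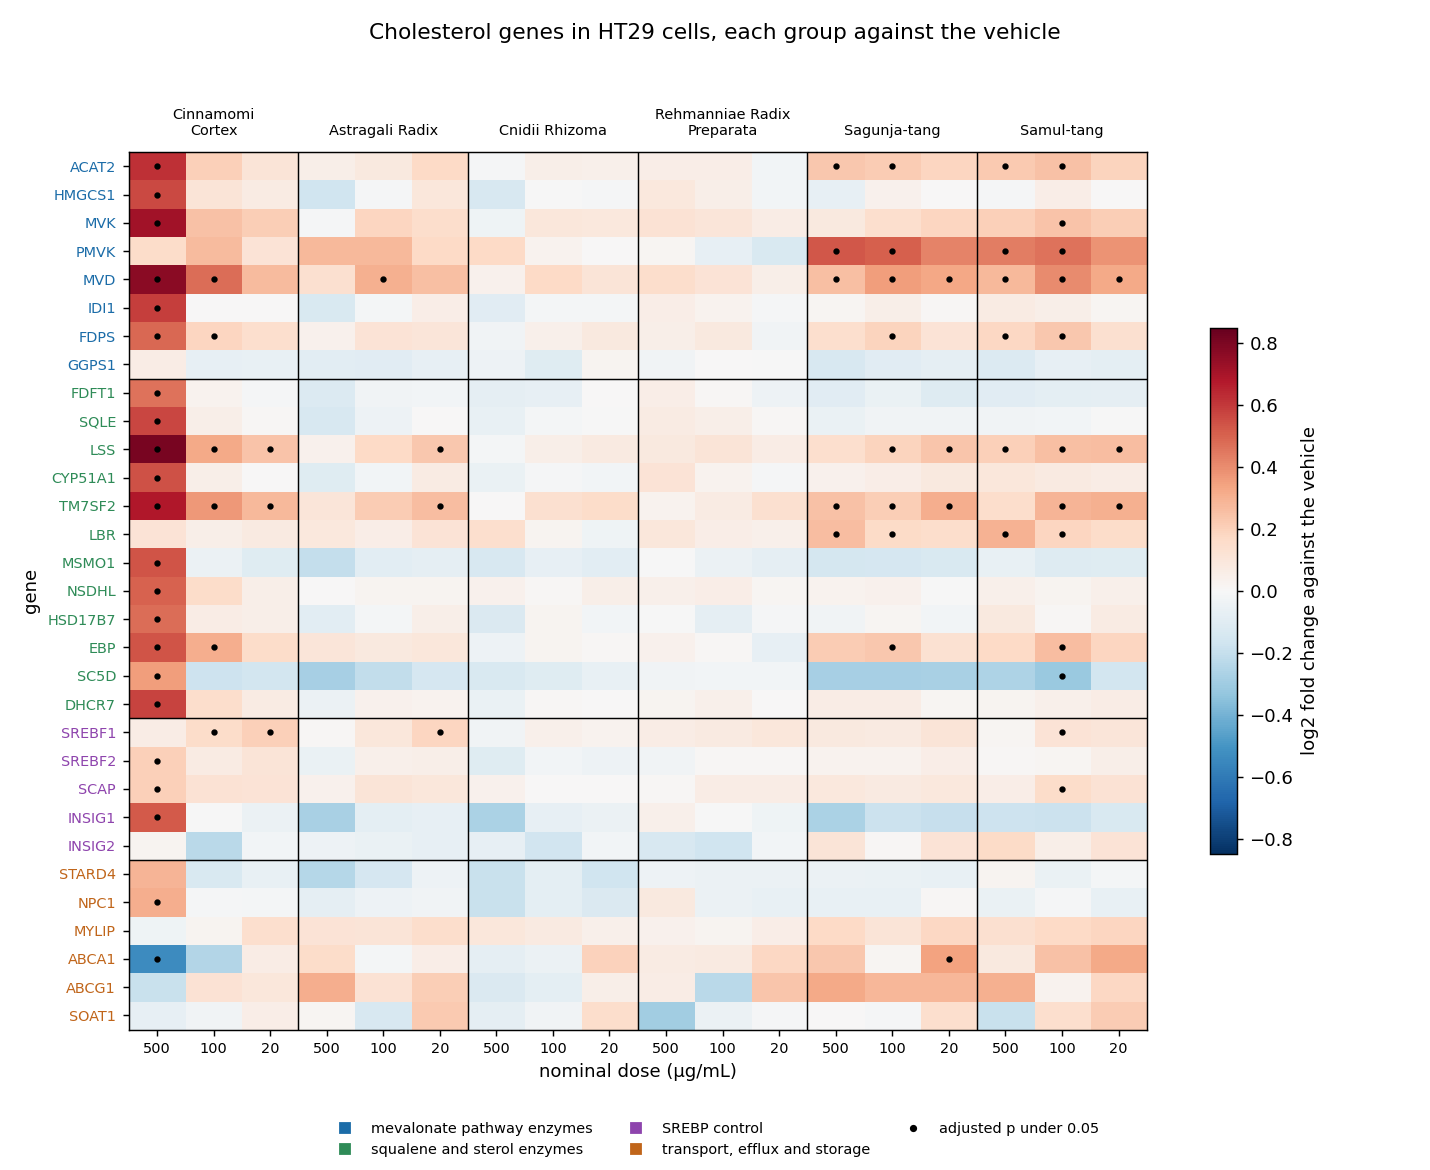
Log2 fold change against the vehicle of the 31 genes (rows, coloured by role) in each extract and nominal dose (columns), with a dot where the adjusted p was under 0.05. The column of Cinnamomi Cortex at 500 µg/mL holds 22 dots, more than any other, and the columns of Cnidii Rhizoma and Rehmanniae Radix Preparata hold none.

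Among the mevalonate enzymes, MVD, which decarboxylates mevalonate diphosphate and whose promoter is shown above, had the largest difference. Its level was 45.3, 45.1 and 42.7 CPM in the vehicle libraries and 72.4, 67.6 and 87.4 CPM with Cinnamomi Cortex, so the groups did not overlap and replicate 3 was the highest. The log2 fold change was 0.77 (SE 0.08, adjusted p 8.73e-10). MVK, the mevalonate kinase, stood at 39.3, 40.5 and 36.4 CPM in the vehicle and at 60.3, 59.4 and 71.7 CPM with the extract (log2 fold change 0.72, SE 0.09, adjusted p 1.61e-08). ACAT2, the cytosolic thiolase that joins 2 acetyl-CoA units, rose by 0.62 on the log2 scale, and IDI1, which isomerises isopentenyl diphosphate, by 0.59. HMGCS1, the HMG-CoA synthase that feeds the pathway, rose by 0.56, and FDPS, which makes farnesyl diphosphate, by 0.49. The exceptions were PMVK, the phosphomevalonate kinase between MVK and MVD, and GGPS1, which diverts farnesyl diphosphate to the geranylgeranyl branch. PMVK was at 13.0 to 20.0 CPM against 12.1 to 16.0 (log2 fold change 0.15, SE 0.16, adjusted p 0.599) and GGPS1 at 47.3 to 54.6 against 47.5 to 51.4 (0.06, SE 0.05, adjusted p 0.508), with overlapping libraries for each.

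Among the enzymes after farnesyl diphosphate, LSS, the cyclase that forms lanosterol, had the largest log2 fold change of the 31 genes. LSS (chr21:46188141-46228824, minus strand) was at 108, 106 and 100.2 CPM in the vehicle and at 171, 174 and 204 CPM with Cinnamomi Cortex (log2 fold change 0.80, SE 0.06, adjusted p 1.41e-14). The lowest treated library thus stood well above the highest vehicle library. SQLE was at 904, 928 and 844 CPM in the vehicle and at 1376, 1284 and 1309.7 CPM with the extract (0.57, SE 0.08, adjusted p 1.48e-06). DHCR7 was at 415, 413 and 383 CPM against 598, 559 and 649 CPM (0.58, SE 0.05, adjusted p 4.45e-12). Each step of the later route was represented among the calls. TM7SF2, a sterol C14-reductase, rose by 0.68 on the log2 scale, CYP51A1, the C14-demethylase, by 0.54, EBP, the sterol isomerase, and MSMO1, the C4-methyl oxidase, by 0.53 each, and NSDHL, which acts with MSMO1, by 0.50. HSD17B7, the 3-ketosteroid reductase, rose by 0.47, FDFT1, the squalene synthase, by 0.46, and SC5D, the C5-desaturase, by 0.36. The call for SC5D (adjusted p 0.0186) was lost in 4 of the 6 fits that left out 1 library: those without vehicle replicate 1 or 3 and those without treated replicate 1 or 2. LBR, a nuclear envelope protein with the same C14-reductase activity as TM7SF2, was at 159 to 173 CPM against 153 to 157, above without overlap, but was not called (0.11, SE 0.06, adjusted p 0.188).

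Of the 5 control genes, INSIG1 had the largest estimate. INSIG1, itself an SREBP target that retains SCAP, was at 197, 207 and 185 CPM in the vehicle and at 307, 279 and 262 CPM with Cinnamomi Cortex (log2 fold change 0.52, SE 0.11, adjusted p 0.000424). Its replicate 3 was the lowest of the treated libraries, whereas replicate 3 of MVD and LSS was the highest. SREBF2 was at 280, 279 and 273 CPM against 305, 308 and 344 CPM (0.20, SE 0.04, adjusted p 0.000289). SCAP was also called higher (0.20, SE 0.05, adjusted p 0.00735), though its treated libraries, from 74.3 CPM, began below the highest vehicle library at 74.6. SREBF1 (0.06, SE 0.04, adjusted p 0.421) and INSIG2 (0.02, SE 0.10, adjusted p 0.915) were not called. The call for SCAP was lost with the library set as a term (adjusted p 0.136), without vehicle replicate 2 (0.0537) and without treated replicate 3 (0.186), and those for SCAP and SREBF2 were lost in a fit of these 2 groups alone.

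Of the 6 transport, efflux and storage genes, 1 was called in each direction. NPC1, which releases cholesterol from lysosomes, was at 57.9, 59.9 and 51.4 CPM in the vehicle and at 69.0, 67.9 and 72.9 CPM with the extract (log2 fold change 0.31, SE 0.06, adjusted p 0.000237). ABCA1 (chr9:104781002-104928237, minus strand), which loads cholesterol onto apolipoprotein A-I, was at 4.92, 5.05 and 5.32 CPM against 3.84, 4.03 and 2.52 CPM (-0.53, SE 0.12, adjusted p 0.00175). Its libraries did not overlap, and replicate 3 lay furthest down. The call for ABCA1 was lost without that replicate (-0.37, adjusted p 0.0587) and in a fit of these 2 groups alone (-0.54, adjusted p 0.0845). STARD4, a soluble sterol carrier, was higher in all 3 libraries but not called (0.29, SE 0.14, adjusted p 0.174). ABCG1 (-0.19, SE 0.15), SOAT1, which esterifies cholesterol (-0.07, SE 0.14), and MYLIP, which marks lipoprotein receptors for degradation (-0.04, SE 0.08), were not called.

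**Figure D2:**
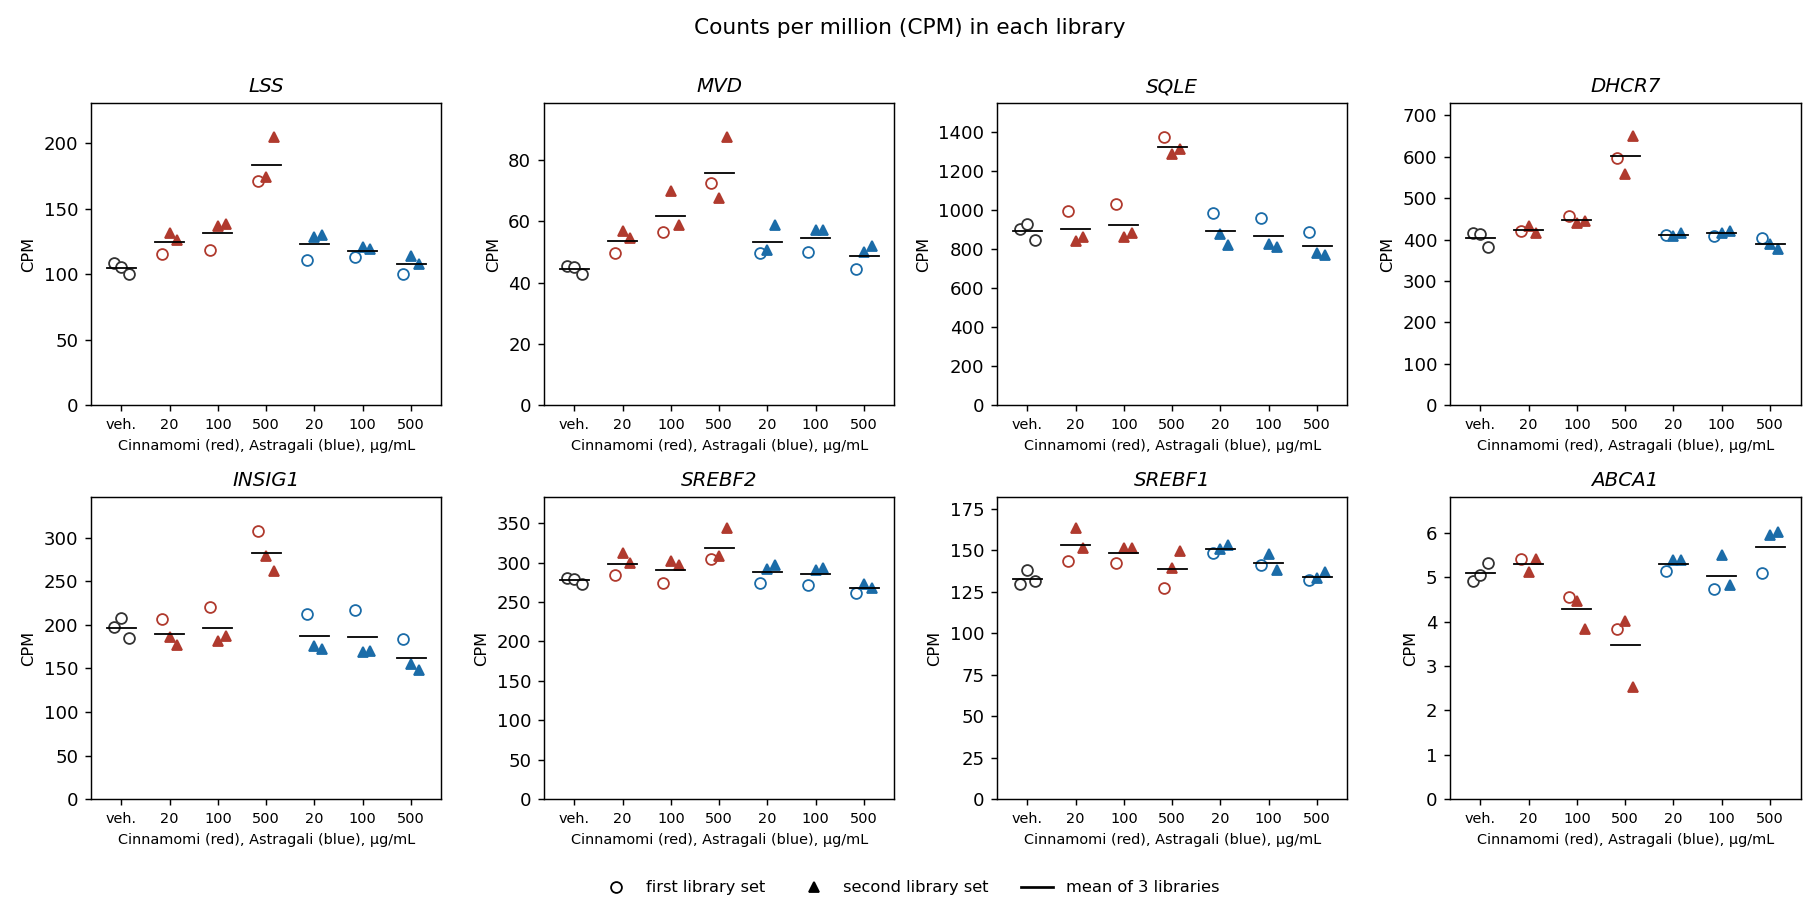
CPM of 8 of the genes in each library of the vehicle, Cinnamomi Cortex (red) and Astragali Radix (blue) at 20, 100 and 500 µg/mL, with circles for the first and triangles for the second library set and a line at the mean of 3 libraries. For LSS the 3 libraries of Cinnamomi Cortex at 500 µg/mL sit between 171 and 204 CPM, above all others, and for ABCA1 between 2.52 and 4.03 CPM.

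Calls appeared at the top dose and not between the lower ones. Against 20 µg/mL of the same extract, 500 µg/mL of Cinnamomi Cortex had 19 of the 31 genes higher and 2 lower, where 4.51% and 5.58% of all genes were called (edgeR quasi-likelihood test, Benjamini-Hochberg). The median log2 fold change of the 31 genes was 0.41, and the genes called higher were 6 mevalonate enzymes, 11 squalene and sterol enzymes, INSIG1 and NPC1. MSMO1 (0.64), IDI1 (0.58) and INSIG1 (0.58) led on the log2 scale. The genes called lower were ABCA1 (-0.59, SE 0.12, adjusted p 0.000459) and SREBF1 (-0.14, SE 0.04, adjusted p 0.0302). The SREBF1 libraries overlapped, and its call was lost in the second library set alone and in 4 of the 6 fits that left out 1 library. The call for HMGCS1 was lost in 3 of those 6, without replicate 1 of the 500 µg/mL group and without replicate 2 or 3 of the 20 µg/mL group. In a fit of these 2 groups alone the calls for ABCA1, SREBF1, EBP and SC5D were lost. SREBF2 and SCAP, called against the vehicle, were not called against 20 µg/mL (0.10, adjusted p 0.131, and 0.09, adjusted p 0.336). Against 100 µg/mL, 19 genes were higher and none lower, where 2.92% and 2.80% of all genes were called. Between 100 and 20 µg/mL, 0 of the 31 genes were called (0.0122% of all genes), with 4 below an unadjusted p of 0.05, while DESeq2 gave 0 calls.

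The single libraries are given for the most abundant gene and for the efflux pump that fell. SQLE stood at 996, 843 and 861 CPM at 20 µg/mL of Cinnamomi Cortex and at 1028, 863 and 882 CPM at 100 µg/mL, with replicate 1 the highest at each dose. Both ranges overlapped the vehicle's, while all 3 libraries at 500 µg/mL lay above them. ABCA1 stood at 5.40, 5.11 and 5.40 CPM at 20 µg/mL and at 4.57, 4.47 and 3.84 CPM at 100 µg/mL, below every library at 20 µg/mL but not called (log2 fold change -0.31, edgeR adjusted p 0.399).

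**Figure D3:**
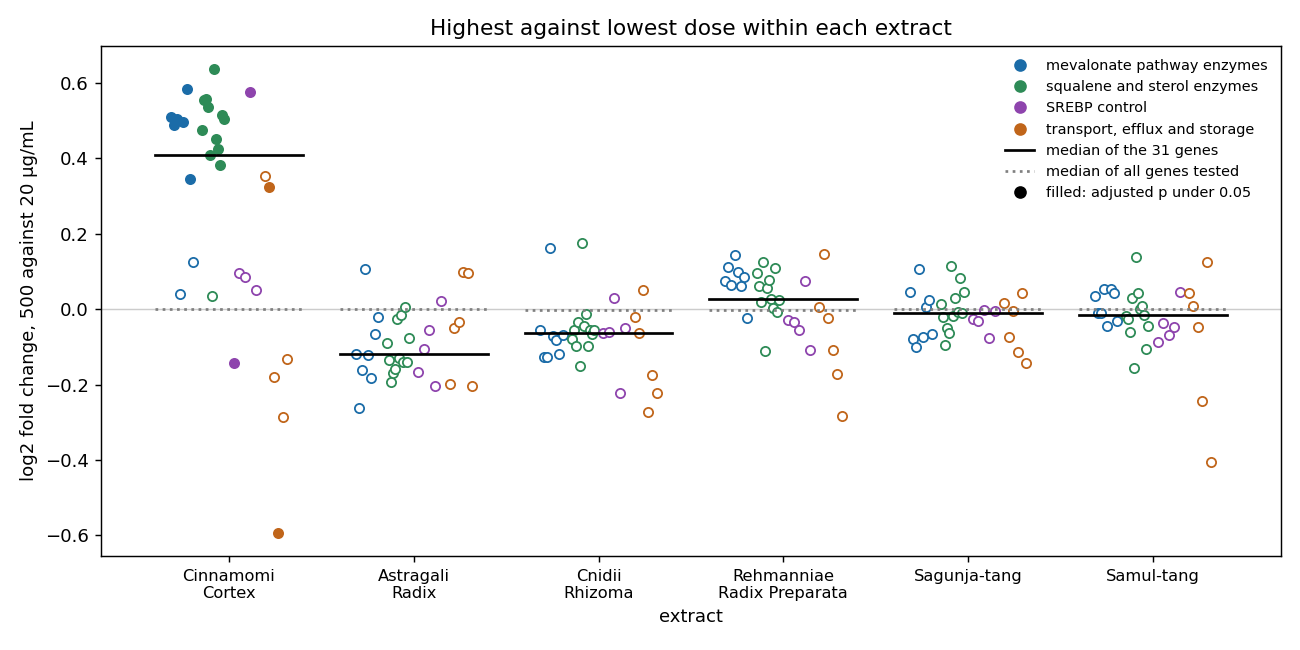
Log2 fold change of 500 against 20 µg/mL for the 31 genes (points, coloured by role, filled where the adjusted p was under 0.05) in each of the 6 extracts, with the median of the 31 genes (solid) and of all genes tested (dotted). The median is 0.41 for Cinnamomi Cortex and between -0.12 and 0.03 for the others, none of which has a filled point (0.397% of all genes called for Cnidii Rhizoma and 0.171% for Rehmanniae Radix Preparata).

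Against the vehicle, the lower doses of Cinnamomi Cortex had few calls. At 100 µg/mL, 6 of the 31 genes were higher (3.74% of all genes called higher), with MVD (0.48), TM7SF2 (0.37) and LSS (0.32) the largest on the log2 scale, followed by EBP, FDPS and SREBF1. At 20 µg/mL, TM7SF2, LSS and SREBF1 were higher (1.24% of all genes called higher). In both groups replicates 2 and 3 came from the second library set while the vehicle came from the first. With the library set as a term, 4 genes were called at 100 µg/mL (1.45% of all genes) and 0 at 20 µg/mL (share not given here). The 6 genes became 3 without vehicle replicate 3 or without replicate 2 of the 100 µg/mL group, and leaving out 1 library gave 0 to 5 genes at 20 µg/mL, with 0 without vehicle replicate 1.

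At 500 µg/mL, Cinnamomi Cortex was also compared directly with Astragali Radix, the root drug whose 3 libraries had the same make-up of library sets. The 31 genes held 22 calls higher and 2 lower in Cinnamomi Cortex, where 4.90% and 5.80% of all genes were called. INSIG1 had the largest difference, with 183, 155 and 148 CPM for Astragali Radix against 307, 279 and 262 CPM (log2 fold change 0.80, SE 0.11, adjusted p 4.15e-07). LSS (0.77), MSMO1 (0.74), MVK (0.73) and HMGCS1 (0.73) followed on the log2 scale. STARD4 was called here (0.53, SE 0.14, adjusted p 0.00848), and so were both efflux pumps, ABCA1 (-0.69, SE 0.12, adjusted p 3.26e-05) and ABCG1 (-0.49, SE 0.15, adjusted p 0.02). ABCG1 stood at 3.84, 5.01 and 4.36 CPM with Astragali Radix and at 3.29, 2.78 and 3.36 CPM with Cinnamomi Cortex. Its call was lost without replicate 2 of Cinnamomi Cortex and without replicate 2 or 3 of Astragali Radix, and that of STARD4 without replicate 2 of Astragali Radix. Over all the fits that left out 1 library, calls were lost 9 times, these included. In a fit of these 2 groups alone the calls for ABCA1, ABCG1, EBP and SCAP were lost. The difference between the dose effects, 500 against 20 µg/mL in Cinnamomi Cortex against the same in Astragali Radix, was tested as an interaction. It was positive and called for 19 genes and negative and called for ABCA1, where 1.11% and 1.44% of all genes were called. In a fit of the 4 groups alone 6 of these 20 calls were lost, that of ABCA1 among them. In the second library set alone 2 were lost. Over the fits that left out 1 library, calls were lost 10 times, among them ABCA1 without replicate 3 of Cinnamomi Cortex at 500 µg/mL.

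Most of these differences were also present within a library set. With the set as a term, 22 of the 31 genes were called between Cinnamomi Cortex at 500 µg/mL and the vehicle (11.7% of all genes), 21 of them the same genes, with SCAP lost and STARD4 gained. In the second set alone, 20 genes were called between 500 and 20 µg/mL (7.77% of all genes), all of them among the 21 above. In the first set alone, where 1 library of the extract faced 3 of the vehicle and is assumed to vary like the other groups, 16 genes were called (3.02% of all genes), all higher and all among the 22. The same single library against that of 20 µg/mL gave 6 calls (0.993% of all genes). Among the genes not called against the vehicle in the first set alone were SREBF2 (log2 fold change 0.14), SCAP (0.08) and ABCA1 (-0.41). Replicate 2 of Cinnamomi Cortex at 500 µg/mL was the library apart from its set. Without it, 21 of the 22 genes were called against the vehicle and 20 of the 21 against 20 µg/mL.

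**Figure D4:**
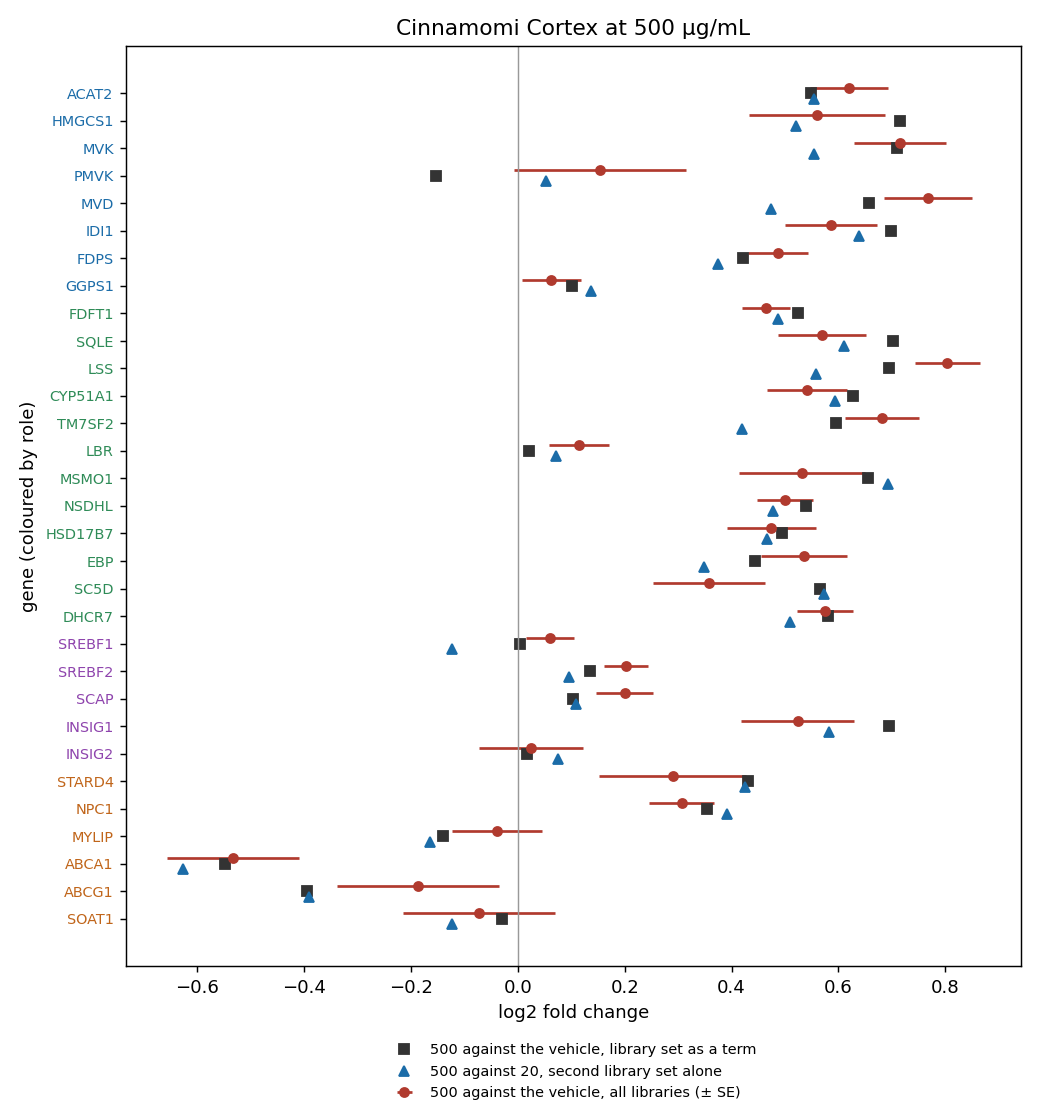
Log2 fold change of the 31 genes for Cinnamomi Cortex at 500 µg/mL against the vehicle over all libraries (circles, with SE), the same with the library set as a term (squares), and 500 against 20 µg/mL in the second library set alone (triangles). LSS lies at 0.80 on the circles, and the squares and triangles of the called enzymes lie on the same side of 0 as their circles.

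Other genes that share SREBP control or the sterol route were read from lists of their own at the same contrast, 500 µg/mL of Cinnamomi Cortex against the vehicle. The lists were chosen with earlier results of these data known. Over all genes tested, 6.09% were called higher and 6.62% lower at this contrast. Of 10 tested SREBP targets of fatty acid synthesis, 7 were higher and none lower. ACSS2, which makes acetyl-CoA from acetate, rose most among them, from 25.9 ± 2.08 to 56.8 ± 3.55 CPM (SD, n = 3, log2 fold change 1.14), followed by the phosphatidate phosphatase LPIN1 (0.60) and the desaturase SCD (0.55). Of 15 tested genes of sterol transport and uptake, 5 were higher, among them TMEM97, a partner of NPC1 (0.39), and SCARB1, the HDL receptor (0.39). NPC1L1, the intestinal cholesterol importer, was also called (1.63), but at 0.0757 to 0.340 CPM in the vehicle and 0.457 to 1.03 CPM with the extract it was close to undetected. Of 5 redox partners of the sterol enzymes, 3 were higher, the scaffold ERG28 (0.30), CYB5B (0.21) and the P450 reductase POR (0.21). None of 12 genes of SREBP processing and sterol-regulated turnover was called. Of 12 genes of the isoprenoid branches ICMT was higher (0.18) and PGGT1B lower (-0.17). For lists of this length, both counts lay near the 12.7% of all genes called in either direction.

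Of the 7 tested genes on the list of LXR targets and oxysterol enzymes, 1 was called against the vehicle, where 12.7% of all genes were called in either direction. This was NR1H2, which encodes LXR beta (0.20, higher). The summed level of the 7 colon epithelium markers was 11520 to 13080 CPM with Cinnamomi Cortex at 500 µg/mL against 10710 to 11160 CPM in the vehicle, without overlap. Among them, KRT20 (0.46, at 385 to 423 against 267 to 314 CPM) and KRT8 (0.16) were called higher and none lower. Their part in the result was not tested.

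Astragali Radix, Cnidii Rhizoma and Rehmanniae Radix Preparata had few or no calls against the vehicle among the 31 genes. For Astragali Radix, 0, 1 and 3 genes were called at 500, 100 and 20 µg/mL (3.61%, 2.43% and 1.39% of all genes called). These were MVD at 100 µg/mL (0.30) and TM7SF2, LSS and SREBF1 at 20 µg/mL (0.18 to 0.26). With the library set as a term, 0 were called at each dose (share of all genes not given here). Leaving out any single vehicle library took the call for MVD away. At 500 µg/mL, 4 genes had an unadjusted p under 0.05 and DESeq2 called 0. At 500 against 20 µg/mL of Astragali Radix, 26 of the 31 estimates were negative, with a median of -0.12 (0.0002 over all genes). At the adjusted threshold 0 were called (0.0795% of all genes), and DESeq2 gave 0 calls. An unadjusted edgeR p under 0.05 was found for 7. The share of all genes under that unadjusted p is not given here or for the other comparisons, so such counts are not read as an excess. Here same-numbered libraries deviated together, but replicate 1 of both groups came from the first library set and replicates 2 and 3 from the second. Pairing by number was thus not separated from the library set. With the number as a block INSIG1 and HMGCS1 were called lower (0.122% of all genes). INSIG1 stood at 183, 155 and 148 CPM at 500 µg/mL and at 213, 175 and 172 CPM at 20 µg/mL, lower at the higher dose within each replicate number but overlapping between the groups.

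For Cnidii Rhizoma and Rehmanniae Radix Preparata, whose libraries all belong to the vehicle's set, none of the 31 genes was called at any dose, where 1.38%, 0.147% and 0.293% of all genes were called at 500, 100 and 20 µg/mL of Cnidii Rhizoma and 0.593%, 0.202% and 0.44% with Rehmanniae Radix Preparata. At an unadjusted p under 0.05 there were 4, 2 and 2 genes for Cnidii Rhizoma and 1, 0 and 1 for Rehmanniae Radix Preparata at 500, 100 and 20 µg/mL, and DESeq2 called 0 at each. With Cnidii Rhizoma at 500 µg/mL the median log2 fold change of the 31 genes was -0.06 (0.001 over all genes), and 24 of 31 estimates were negative. With Rehmanniae Radix Preparata it was 0.04 (0.001 over all genes), and 23 were positive. Many of the 31 genes vary together between libraries of a group (SQLE with INSIG1 r 0.96, 39 libraries). Signs counted over the 31 genes are therefore not separate observations. Between these extracts at 500 µg/mL, NPC1 was lower with Cnidii Rhizoma (-0.27, SE 0.06, adjusted p 0.0353), the only gene of the 31 that was called (edgeR quasi-likelihood test, 0.153% of all genes called). That call was lost in 5 of the 6 fits that left out 1 library. SQLE and LSS, which rose by 0.57 and 0.80 with Cinnamomi Cortex, had log2 fold changes of -0.06 and -0.02 with Cnidii Rhizoma and of 0.07 and 0.08 with Rehmanniae Radix Preparata at 500 µg/mL.

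The formulae had calls against the vehicle, in a comparison where extract and library set cannot be told apart. For Sagunja-tang 5, 8 and 4 of the 31 genes were called at 500, 100 and 20 µg/mL (19.9%, 16.3% and 18.1% of all genes called), all of them higher. For Samul-tang 6, 12 and 3 were called (18.1%, 21.6% and 10.5% of all genes called), all higher except SC5D at 100 µg/mL. In either direction, the shares of the 31 genes lay near those of all genes at most doses, and above them at 100 µg/mL of each formula. Called higher were 11.6%, 9.24% and 9.43% of all genes for Sagunja-tang and 10.1%, 11.8% and 5.58% for Samul-tang. The shares of the 31 genes called higher lay above these at every dose, but rest on few genes that vary together. PMVK, not called with Cinnamomi Cortex, had the largest estimates, at 20.4, 16.4 and 23.0 CPM with Sagunja-tang at 100 µg/mL (log2 fold change 0.51, SE 0.16, adjusted p 0.0236) against 16.0, 13.7 and 12.1 CPM in the vehicle. MVD was called at all 3 doses of both formulae (0.26 to 0.40). SC5D was at 125, 124 and 133 CPM with Samul-tang at 100 µg/mL against 150.2, 172 and 153 CPM in the vehicle (-0.32, SE 0.11, adjusted p 0.0308). The share of all genes called is not given here for fits that left out 1 library. The counts among the 31 genes turned on single libraries. In the order of doses above, they were 1, 1 and 3 for Sagunja-tang and 1, 5 and 2 for Samul-tang without vehicle replicate 3, and 3, 3 and 3, and 3, 8 and 3, without vehicle replicate 2. Without replicate 1 of the extract they were 3, 3 and 2, and 1, 3 and 3. Without its replicate 2 they were 4, 4 and 5, and 4, 8 and 2, and without its replicate 3 they were 3, 1 and 3, and 6, 10 and 3.

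The set term, which was estimated from the Cinnamomi Cortex and Astragali Radix groups that span both sets, differed between sets for 21 of the 31 genes, 12 higher and 9 lower in the second set (18% and 16.2% of all genes). PMVK had the largest positive value (0.43, SE 0.07, adjusted p 9.76e-06) and SC5D the largest negative one (-0.31, SE 0.04, adjusted p 7.07e-08), followed by INSIG1 (-0.26) and HMGCS1 (-0.24). MVD (0.16), LSS (0.16) and TM7SF2 (0.12) were positive. With the set as a term, none of the 31 genes was called against the vehicle for either formula at any dose. That contrast takes the set difference from other extracts and carries its error, so it is less precise. The share of all genes called in it is not given here, so the absence of calls is not read as a result about the 31 genes. Within the formulae, 500 against 20 µg/mL gave 0 calls among the 31 genes for each extract (0.00611% of all genes for Sagunja-tang, 0.141% for Samul-tang), with 1 and 4 below an unadjusted p of 0.05, while DESeq2 gave 0 calls. Between Sagunja-tang and Samul-tang at 500 µg/mL, 0 of the 31 genes were called (0.318% of all genes), with 0 below an unadjusted p of 0.05 and 0 by DESeq2.

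**Figure D5:**
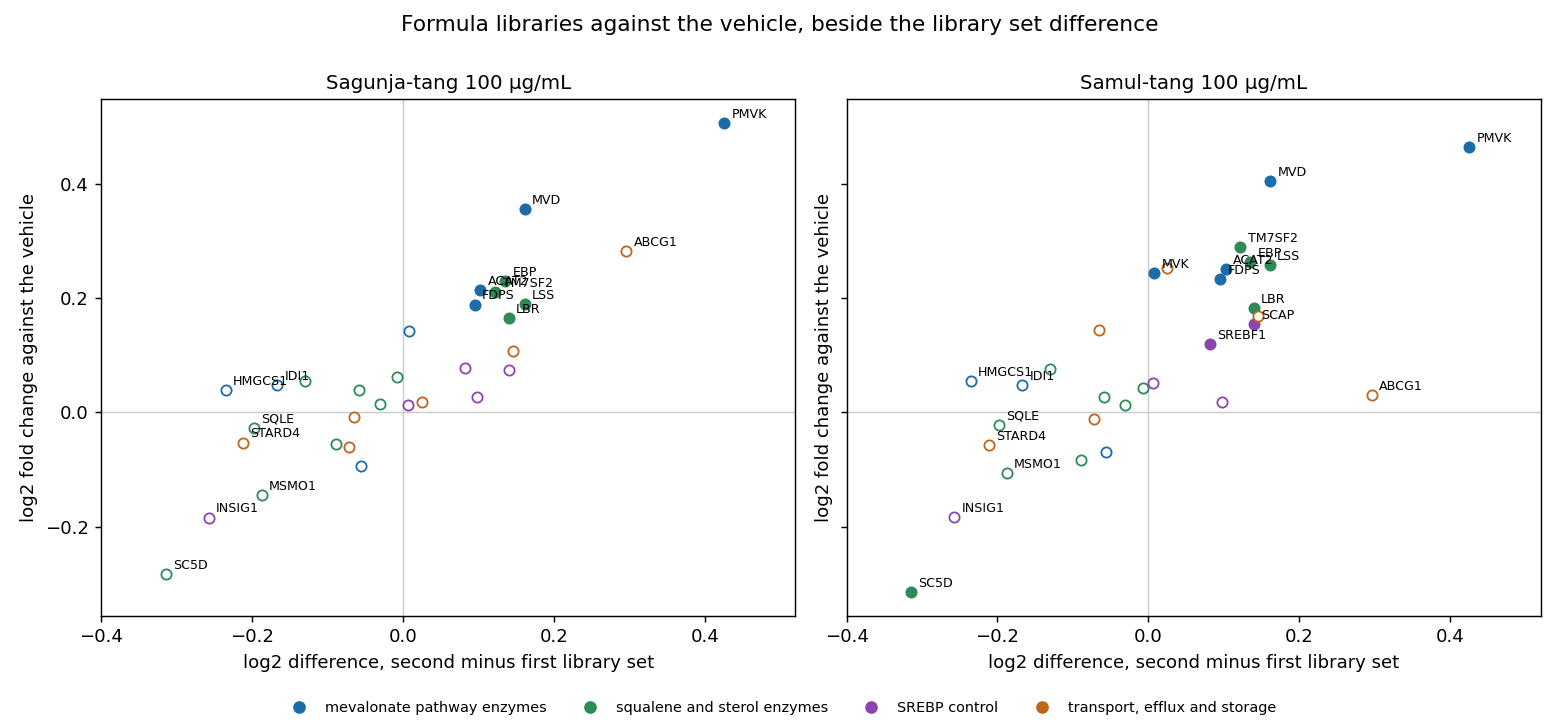
For each of the 31 genes, the log2 difference between the second and the first library set (horizontal axis) and the log2 fold change of Sagunja-tang (left) or Samul-tang (right) at 100 µg/mL against the vehicle (vertical axis), filled where the latter was called. PMVK, at 0.43 on the horizontal axis, is the highest point in each panel, and SC5D, at -0.31, is the lowest.

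Paeoniae Radix, with 1 library per dose, has no replicate check. Of the 31 genes, 11 lay above all vehicle libraries and 5 below at 500 µg/mL (29.6% and 28.0% of all genes), 8 and 8 at 100 µg/mL (28.4% and 25.3%), and 16 and 7 at 20 µg/mL (36.1% and 33.6%). The median log2 ratio to the vehicle mean was 0.007, -0.006 and 0.09. PMVK had the highest ratio at 100 µg/mL (0.29) and 20 µg/mL (0.79), and ABCA1 at 500 µg/mL (0.35).

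Read with the promoter windows shown for MVD, LSS, INSIG1, SREBF2 and INSIG2, the calls for Cinnamomi Cortex at 500 µg/mL against the vehicle fell as follows. Of the 17 genes with a CCAAT box, 14 were called higher and 3 (STARD4, MYLIP and SOAT1) were not called. Of the 10 without one, IDI1, CYP51A1, SCAP and NPC1 were called higher, ABCA1 was called lower and 5, INSIG2 among them, were not called. No test was made of this split.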

How the data were processed

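Bulk RNA of 60 HT29 samples was sequenced. The deposited values are expected counts per gene made by the authors. The submitters' processing notes name STAR 2.7.3a, Trim Galore 0.6.5, RSEM 1.3.3, FastQC 0.11.9 and GRCh38 (hg38). No annotation release or strand setting is given in the sources used here. Without a stated strand setting, reads of overlapping antisense neighbours (such as TCP1 beside ACAT2) cannot be told apart, and near-identical copies (such as pseudogenes of HSD17B7) may share reads. Of 273 value columns, 213 belong to no sample given here and were not used.

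Of the expected counts, 8.8% were not whole and were rounded. Genes were kept with edgeR 4.0.16 (R 4.3.3) at a minimum count of 10, scaled by TMM (factors 0.938 to 1.043) and tested by the quasi-likelihood test in 1 model of 19 groups of 3 libraries, over 30 comparisons, each Benjamini-Hochberg adjusted over 16356 genes with a threshold of 0.05. The biological coefficient of variation was 0.057. CPM and RPKM (per kilobase of exon) were computed from the same counts. Depth ran from 20459346 to 36253747 counts. The 57 pairs of libraries within groups differed beyond counting noise (chi-square over degrees of freedom 2.43 to 26.99). The fit was tested on simulated data with the same spread for all genes and no library set difference, which does not check for effects of the set.

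The labels share replicate numbers between groups. For Astragali Radix and Cinnamomi Cortex they also follow the library set (replicate 1 first, replicates 2 and 3 second). Same-numbered libraries deviated together in every pair for Astragali Radix 500 against 20 µg/mL (r 0.166 to 0.554) and Cinnamomi Cortex 100 against 20 µg/mL (0.158 to 0.367) and in no other comparison. Alternatives were RLE factors, no filter on low counts, a replicate block, a library set term, DESeq2 1.42.0, each comparison's groups alone, 1 library set alone and leaving out each library. The first set alone with 1 library in a group, the second set alone where one of the groups had only that set, and the test without robust moderation were chosen after seeing the data. All 31 genes may be named, and of other lists up to 3 called genes with the largest change per comparison. The 31 genes and the lists were chosen with earlier results of these data known. Gene names came from a gene table (56558 rows) or GENCODE 29 (497), and 3620 rows had none. Promoters were taken from RefSeq (GRCh38.p14), 250 bases each.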

Additional observations from a re-analysis of the deposited data

Results flagged for a closer look

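The difference between 500 and 20 µg/mL was not alike in Cinnamomi Cortex and Astragali Radix, by the interaction contrast (edgeR quasi-likelihood test, Benjamini-Hochberg over all genes). It was greater with Cinnamomi Cortex for 19 of the 31 genes and smaller for 1. INSIG1 (0.78 on the log2 scale, SE 0.15, adjusted p 0.000811) and IDI1 (0.77, SE 0.12, adjusted p 3.63e-05) had the largest positive values. ABCA1 had the one negative call (-0.69, SE 0.17, adjusted p 0.00894), which was lost without replicate 3 of Cinnamomi Cortex at 500 µg/mL. In a fit of the 4 groups alone 6 calls were lost, that of ABCA1 among them. The share of all genes called is not given here for that fit or for a library set alone. In the second library set alone 18 genes were called, and 3 in the first set alone, where each group held 1 library.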

How the results depend on the processing

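No direction among the called values reversed under any alternative run. Counts under an alternative given without the share of all genes called in that run are read neither as an excess nor as a lack. Of 3170 values of named genes under an alternative, in the comparisons that held calls, 2766 stayed on their side of the threshold, 366 called values lost their call and 38 uncalled values gained one. For Cinnamomi Cortex the counts of genes called stayed within 1.5 times of those reported at 500 µg/mL, except in the first library set with 1 library in a group (6 against 20 µg/mL, 3 against 100 µg/mL, 14 against Astragali Radix and 3 for the interaction), where fewer libraries were tested. Leaving out 1 library gave 20 to 21 genes against the vehicle, 19 to 22 against 20 µg/mL, 16 to 18 against 100 µg/mL, 21 to 24 against Astragali Radix and 18 to 21 for the interaction.

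For the formulae against the vehicle, 10.5% to 21.6% of all genes were called in the model of 19 groups. Outside Cinnamomi Cortex at 500 µg/mL the counts were small and moved. With the groups compared alone they were 3 and 0 for Cinnamomi Cortex at 100 and 20 µg/mL, 0 and 0 for Astragali Radix at 100 and 20, 10 and 9 for Sagunja-tang at 500 and 20, 9 for Samul-tang at 20, 1 for Cnidii Rhizoma 500 against 20 and 0 for Cnidii Rhizoma against Rehmanniae Radix Preparata. With no filter on low counts they were 5 for Cinnamomi Cortex at 20, 6 and 2 for Astragali Radix at 500 and 100, 1 for Cnidii Rhizoma at 500, 8 and 7 for Sagunja-tang at 500 and 20, 10 and 8 for Samul-tang at 500 and 20, 1 and 1 for 500 against 20 of Astragali Radix and Cnidii Rhizoma, and 3 for Cnidii Rhizoma against Rehmanniae Radix Preparata. With the library set as a term they were 0 for Cinnamomi Cortex at 20, for Astragali Radix at 100 and 20 and for both formulae at every dose, and 1 for Cnidii Rhizoma 500 against 20. With DESeq2 they were 8 and 7 for Sagunja-tang at 500 and 20. In the first library set they were 0 for Cinnamomi Cortex and Astragali Radix at 100 and 20 (1 library in a group) and 0 for Cnidii Rhizoma against Rehmanniae Radix Preparata. The cause was not tested.

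With a replicate block the counts were 5 for Astragali Radix at 500 (SQLE, MSMO1, SC5D, INSIG1 and STARD4, all lower), 2 for Cnidii Rhizoma at 500 (INSIG1 and NPC1, lower), 8 and 8 for Sagunja-tang and Samul-tang at 20, 2 for Astragali Radix 500 against 20, 1 for Cnidii Rhizoma 500 against 20, 2 for Cnidii Rhizoma against Rehmanniae Radix Preparata and 23 for Cinnamomi Cortex at 500 against the vehicle. Apart from the pairs named under the processing, same-numbered libraries did not deviate together in every pair over all genes. Those of 1 extract also share the start of their column code, whereas the vehicle has a code prefix of its own. SQLE stood at 913, 833 and 818 CPM with Cnidii Rhizoma at 500 and at 889, 781 and 769 CPM with Astragali Radix at 500. In the vehicle it stood at 904, 928 and 844 CPM. What the replicate numbers stand for is not stated. For Astragali Radix and Cinnamomi Cortex they also follow the library set (replicate 1 first, replicates 2 and 3 second), while the vehicle is all first set. The 5 genes named for Astragali Radix at 500 were all lower in the second set by the set term (-0.19 to -0.31). The part of the set in these calls was not tested.

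Leaving out 1 library gave 3 to 7 and 0 to 5 genes for Cinnamomi Cortex at 100 and 20, 0 to 2, 0 to 2 and 0 to 6 for Astragali Radix at 500, 100 and 20, 0 to 1 for Cnidii Rhizoma at 500, 1 to 5, 1 to 7 and 2 to 5 for Sagunja-tang at 500, 100 and 20, 1 to 6, 3 to 10 and 2 to 4 for Samul-tang at 500, 100 and 20, and 0 to 1 for Cnidii Rhizoma against Rehmanniae Radix Preparata. Depth limits the rarest of the 31 genes most: the vehicle means of ABCA1, ABCG1 and SOAT1 were 5.10, 3.52 and 3.46 CPM.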
